A study of Homo sapiens with 6 samples.

Results

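The 4 human tropomyosin genes, TPM1 to TPM4, were described in A549 cells after knock-down of KMT9α. All entries of the deposited count table whose gene symbol is TPM1, TPM2, TPM3 or TPM4 were taken. These are 16 of 37585 transcript rows with counts and 4 of 23180 gene symbols. A row is 1 RefSeq transcript with its own count per sample, and each row was kept apart: 7 rows of TPM1, 2 of TPM2, 5 of TPM3 and 2 of TPM4. A549 is an epithelial cell line derived from a lung adenocarcinoma. The study compared wild-type A549 cells at passage 11 that received a control siRNA (siControl, n = 3) with cells of the same passage that received an siRNA against KMT9α (siKMT9α#1, n = 3). Both groups were transfected at 65 nM and harvested after 3 days. The labels call the samples biological replicates without saying how the cultures were separated, so p-values measure the spread between these samples. Only 1 siRNA against KMT9α and 1 cell line were sequenced.

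Tropomyosins are rod-like proteins that pair into coiled coils and lie end to end along actin filaments, where they set which other proteins reach the filament. Across the tropomyosin genes, different forms, long and short, arise through alternative promoters, mutually exclusive internal exons and alternative last exons. In the rows taken here, not every gene showed each of these differences. In muscle, tropomyosin works with troponin to gate myosin. In other cells, different forms mark different actin filament populations, such as stress fibres. KMT9 is a methyltransferase made of KMT9α, the catalytic subunit encoded by N6AMT1, and KMT9β.

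N6AMT1 had 10.2, 10.8 and 11.5 CPM (counts-per-million, with library sizes scaled by TMM) in the siControl samples and 2.87, 3.21 and 3.35 CPM in the siKMT9α samples. Its level fell by 1.77 on the log2 scale, with no overlap of the groups (edgeR quasi-likelihood test with Benjamini-Hochberg adjustment, adjusted p = 1.43e-10, standard error 0.12). Totals over 1 row per gene were 15551778 to 18568639.5 counts in siControl and 13740097 to 19832395.5 in siKMT9α, the highest being siKMT9α replicate 3. In each group 1 sample stood further from the other two than those did from each other. By the mean chi-square per gene, siKMT9α replicate 3 stood at 4.57 and 5.25 from samples 1.36 apart, and siControl replicate 1 at 4.02 and 4.7 from samples 1.81 apart, while samples of different groups stood at 107 to 140. Of the epithelial markers, KRT8, KRT18 and KRT7 were abundant, EPCAM and CDH1 were under 10 CPM, and the summed level of the 6 markers was 4399 to 4883 CPM in siControl and 2941 to 3129 CPM in siKMT9α. They did not move together. KRT8, KRT18, KRT19 and EPCAM were lower, with log2 fold changes of -1.28, -0.75, -0.68 and -2.76. CDH1 rose (1.34) and KRT7 did not pass the test (0.0095, adjusted p = 0.876, edgeR). The summed levels of 7 fibroblast markers were 7.62 to 9.71 and 3.83 to 5.02 CPM, and those of 5 endothelial markers did not exceed 1.17 CPM. Of the 8 muscle markers (13.9 to 15.4 and 10.8 to 13.3 CPM in sum), MYOG was at 0 in all samples and MYOD1, DES and CKM were under 1 CPM. Most of the sum was TTN, at 9.87 CPM in siControl and 7.24 CPM in siKMT9α on average. TTN and NEB fell, MYH3 rose from 0.97 to 1.74 CPM, and MYH11 did not pass the test. The 6 leukocyte markers summed to 85.0 to 92.4 CPM in siControl and 29.7 to 31.3 CPM in siKMT9α, nearly all of it CD68, while CD3E was at 0. The part of these marker changes in the tropomyosin results was not tested.

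The TPM1 rows differ in a few exons only. TPM1 lies on the plus strand of chromosome 15 of GRCh37, the build called hg19 in the study, at chr15:63334819-63364114. Rows were matched to GENCODE exon chains of the same build by their span and length. Long TPM1 rows hold 1 of 2 second exons of equal length, 2a at chr15:63335905-63336030 or 2b at chr15:63336226-63336351. Every row holds 1 of 2 sixth exons of 76 bases, 6a at chr15:63353397-63353472 or 6b at chr15:63353912-63353987. All are coding exons, and they are named here by their order in the gene. The sixth exons are shown because row differences given further on were read as turning on them. Capitals mark each base that differs within the pair.
TPM1 exon 6a: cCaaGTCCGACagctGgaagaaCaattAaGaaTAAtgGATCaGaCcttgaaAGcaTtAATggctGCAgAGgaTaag
TPM1 exon 6b: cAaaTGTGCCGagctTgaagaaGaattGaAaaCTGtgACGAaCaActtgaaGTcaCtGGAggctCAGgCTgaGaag
Exons 6a and 6b of TPM1 were identical at 43 of 76 bases (56.6%), and exons 2a and 2b at 49.2% of their bases. Exon 6b of TPM1 was closer to exon 6b of TPM2 (77.6%), exon 6b of TPM3 (76.3%) and the exon 6 of TPM4 (73.7%) than to its own alternative.

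TPM3, on the minus strand at chr1:154127784-154167124, has the same kind of pair, 6a at chr1:154144505-154144580 and 6b at chr1:154143889-154143964. The rows of TPM4, on the plus strand at chr19:16177831-16213812, share a single exon 6 at chr19:16199855-16199930. They are shown, with capitals for the bases that differ within the TPM3 pair and none for the unpaired TPM4 exon, because the same subtraction of rows gave another picture in TPM3 than in TPM1.
TPM3 exon 6a: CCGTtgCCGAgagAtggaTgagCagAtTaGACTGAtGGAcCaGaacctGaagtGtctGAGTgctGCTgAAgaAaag
TPM3 exon 6b: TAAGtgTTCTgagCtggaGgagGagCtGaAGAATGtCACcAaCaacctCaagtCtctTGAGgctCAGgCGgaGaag
TPM4 exon 6: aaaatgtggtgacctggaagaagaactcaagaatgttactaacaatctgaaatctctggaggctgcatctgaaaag

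**Figure D1:**
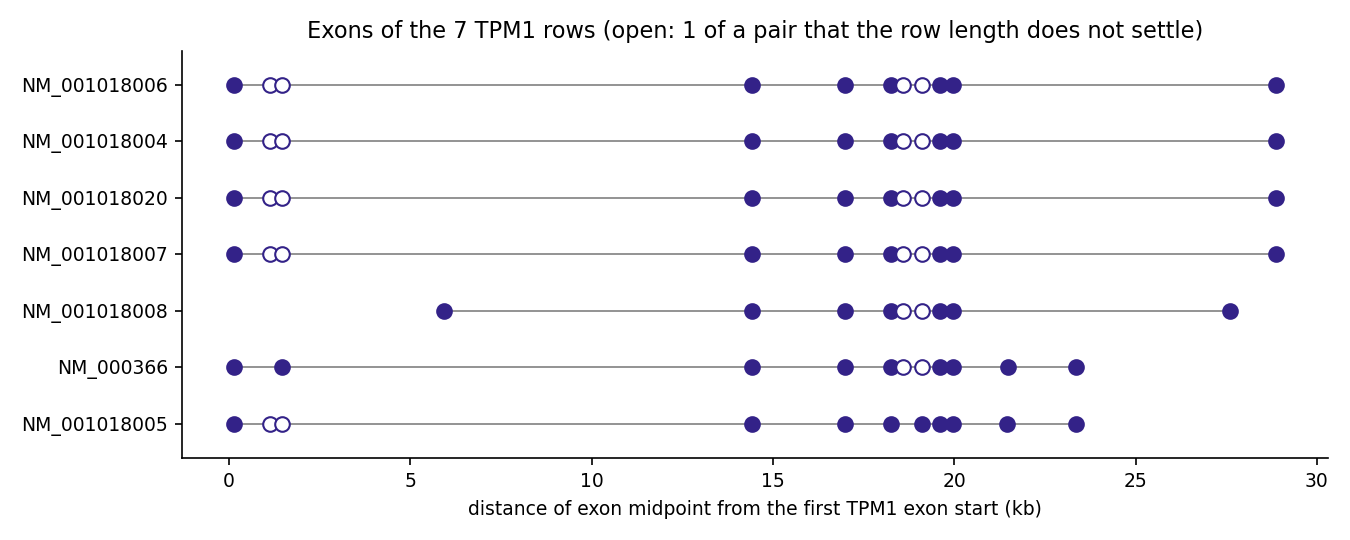
Exon midpoints of the 7 TPM1 rows, as distance in kb from the start of the first exon. Filled circles are exons that every annotated chain matching the row holds, and open circles are the alternatives that the length of the row does not settle, so that 4 rows look alike here while NM_001018008 has its own first and last exon and NM_000366 and NM_001018005 end closest to the start.

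All rows of TPM3 and TPM4 rose after KMT9α knock-down, by more than 2-fold in each case, while the rows of TPM1 and TPM2 either fell slightly or missed the test. Fold changes are relative to TMM scaling, under which the median over all genes was -0.01 on the log2 scale, and on library size alone that median was -0.12. All 16 rows passed the filter on low counts. Of them, 7 rose (43.8%) and 4 fell (25%) at an adjusted p under 0.05, beside 37.5% and 38.8% of the 24770 rows tested. In either direction 11 of 16 rows passed (68.8%), beside 76.3% of all rows, so that the total is not a result about tropomyosins. At the stricter threshold of the study (P under 1e-08 and an absolute log2 fold change over 0.26), 7 of the 16 rows passed (43.8%), all of them of TPM3 and TPM4, beside 27.4% of all rows. Rows of a gene share reads and are not independent, so these shares count some reads repeatedly. The groups did not overlap for 10 of the 16 rows (62.5%), beside 77.5% of all rows. In these bulk samples, a change in the number of cells of a kind and a change in RNA per cell cannot be told apart.

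**Figure D2:**
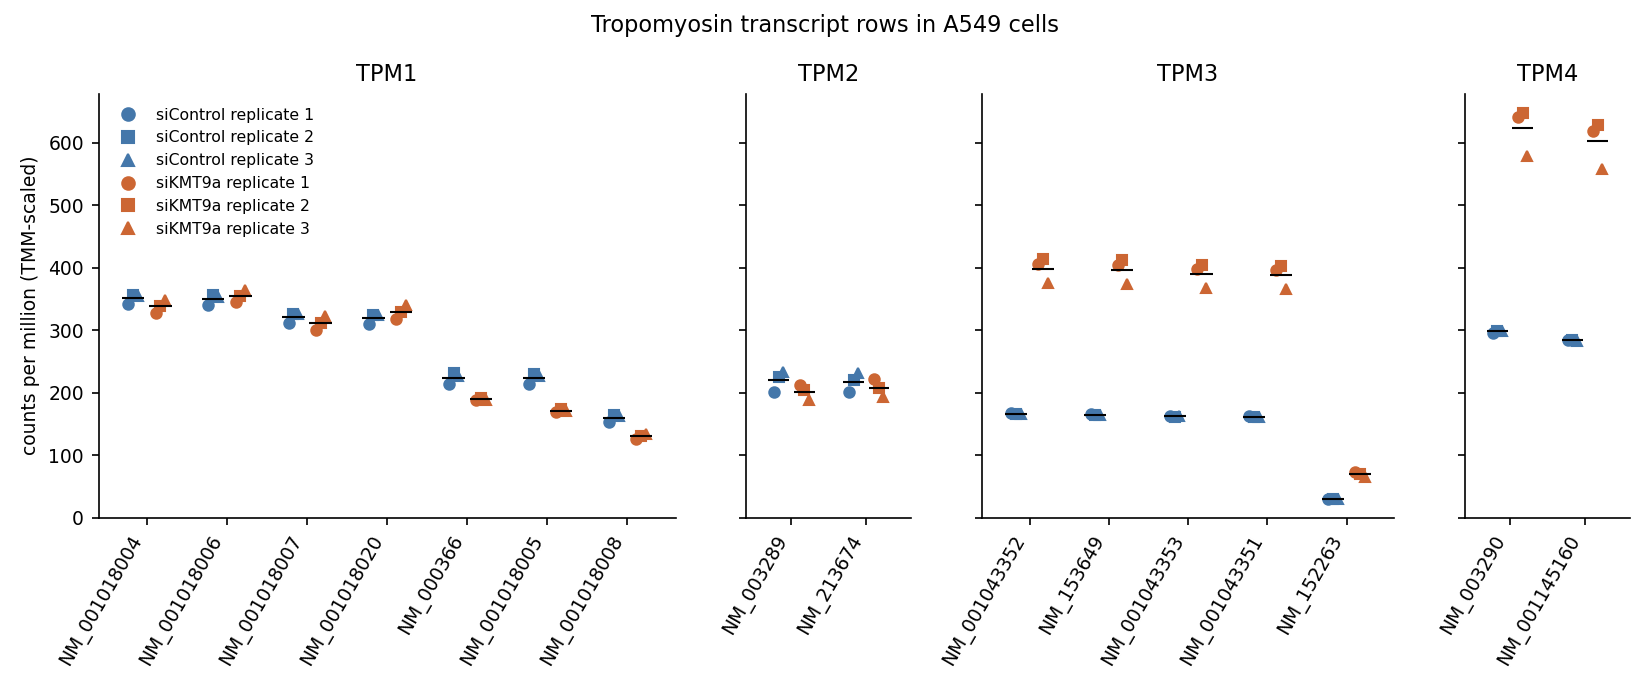
CPM (TMM-scaled) of each tropomyosin row in each of the 6 samples, by gene, with a black line at the group mean. The siKMT9α samples of TPM3 and TPM4 sit above all siControl samples, with replicate 3 the lowest of them, while the groups overlap in the 4 highest TPM1 rows.

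TPM3 encodes tropomyosin forms found in slow muscle and, as short forms, in most other cells. Its row with the largest count, NM_001043352, had 167.2, 165.7 and 165.4 CPM in the siControl samples and 406.1, 413.2 and 375.8 CPM in the siKMT9α samples. The siControl samples lay within 2 CPM of each other, and the siKMT9α samples were all higher, replicate 3 the least so. The change was 1.26 on the log2 scale, a 2.40-fold rise (standard error 0.05, adjusted p = 1.42e-15, edgeR quasi-likelihood test, Benjamini-Hochberg over all rows). Rows NM_153649, NM_001043353 and NM_001043351, which share most of their exons with it, gave log2 fold changes of 1.26 to 1.27. The row NM_152263 starts at another promoter, holds a second exon and other last exons, and was counted at a lower level. It had 29.9, 29.1 and 29.2 CPM in siControl and 72.2, 70.1 and 64.9 CPM in siKMT9α, again without overlap of the groups. On the log2 scale it rose by 1.23 (edgeR, adjusted p = 4.97e-14, standard error 0.06). The internal exons that it shares with the short rows can hold no more than its own count, which was 17.7% of NM_001043352 in siControl and 17.3% in siKMT9α, so most reads of the short rows lay in their own first and last exons.

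TPM4 encodes a tropomyosin of non-muscle cells. Its short row, NM_003290, had 295.8, 299.2 and 298.9 CPM in siControl and 641.1, 647.9 and 579.6 CPM in siKMT9α. Its long row, NM_001145160, which starts upstream, had 284.6, 284.5 and 283.2 CPM and 619.6, 628.8 and 558.3 CPM. In both rows the groups did not overlap and siKMT9α replicate 3 was again the lowest of its group. The log2 fold changes were 1.06 (a 2.09-fold rise, standard error 0.05, adjusted p = 4.2e-14) and 1.08 (a 2.12-fold rise, standard error 0.05, adjusted p = 3.66e-14). Without siKMT9α replicate 3, the log2 fold change of NM_003290 was 1.12 and that of NM_001043352 of TPM3 was 1.31.

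TPM1 encodes the tropomyosin of the heart and of fast muscle as well as forms of smooth muscle and other cells. The 4 rows that end at the most distal last exon (chr15:63363289-63364113) did not pass the test, though on library size alone NM_001018004 and NM_001018007 passed as lower, and NM_001018006 and NM_001018020 turned below 0 without passing. The largest, NM_001018006, had 339.9, 355.8 and 353.8 CPM in siControl and 345.1, 355.5 and 364.6 CPM in siKMT9α. These ranges overlapped, with a log2 fold change of 0.02 (95% interval -0.07 to 0.11, adjusted p = 0.681, edgeR). NM_001018020 gave 0.04, NM_001018007 gave -0.04 and NM_001018004 gave -0.05, with adjusted p from 0.306 to 0.446.

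The 3 TPM1 rows that end at other last exons fell. NM_001018005 and NM_000366 end at the proximal last exon (chr15:63358095-63358292), and NM_001018008 has its own first exon and its own last exon (chr15:63362069-63362831). NM_001018005 had 213.2, 230.3 and 226.1 CPM in siControl and 168.7, 173.9 and 170.1 CPM in siKMT9α. NM_000366 had 213.3, 231.6 and 226.2 CPM and 188.0, 191.6 and 188.3 CPM. NM_001018008 had 152.4, 163.8 and 162.5 CPM and 125.5, 130.1 and 134.6 CPM. In all 3 rows each siKMT9α sample was below each siControl sample. The log2 values fell by 0.39 (standard error 0.05, adjusted p = 2.41e-07), 0.24 (standard error 0.05, adjusted p = 1.08e-04) and 0.29 (standard error 0.05, adjusted p = 1.5e-05), in the same order of rows. None of the 3 reached the threshold of the study in this test, but NM_001018005 did with the likelihood-ratio test, in DESeq2, without a filter on low counts and on library size alone.

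TPM2 encodes the beta tropomyosin of muscle and a form of other cells, and lies on the minus strand at chr9:35681989-35690053. Its row NM_213674 had 201.1, 220.1 and 231.4 CPM in siControl and 221.2, 207.1 and 193.2 CPM in siKMT9α, which overlapped (log2 fold change -0.07, 95% interval -0.18 to 0.04, adjusted p = 0.26, edgeR). On library size alone it passed as lower (adjusted p = 0.00849, edgeR). NM_003289 had 201.7, 225.8 and 233.8 CPM and 212.8, 204.5 and 187.5 CPM, also with overlap. Its log2 fold change of -0.13 had an adjusted p of 0.0473 in edgeR. That call was lost without siControl replicate 2 (-0.10), siControl replicate 3 (-0.07), siKMT9α replicate 2 (-0.14) or siKMT9α replicate 3 (-0.08), and with RLE factors and in DESeq2 (-0.12 in both).

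**Figure D3:**
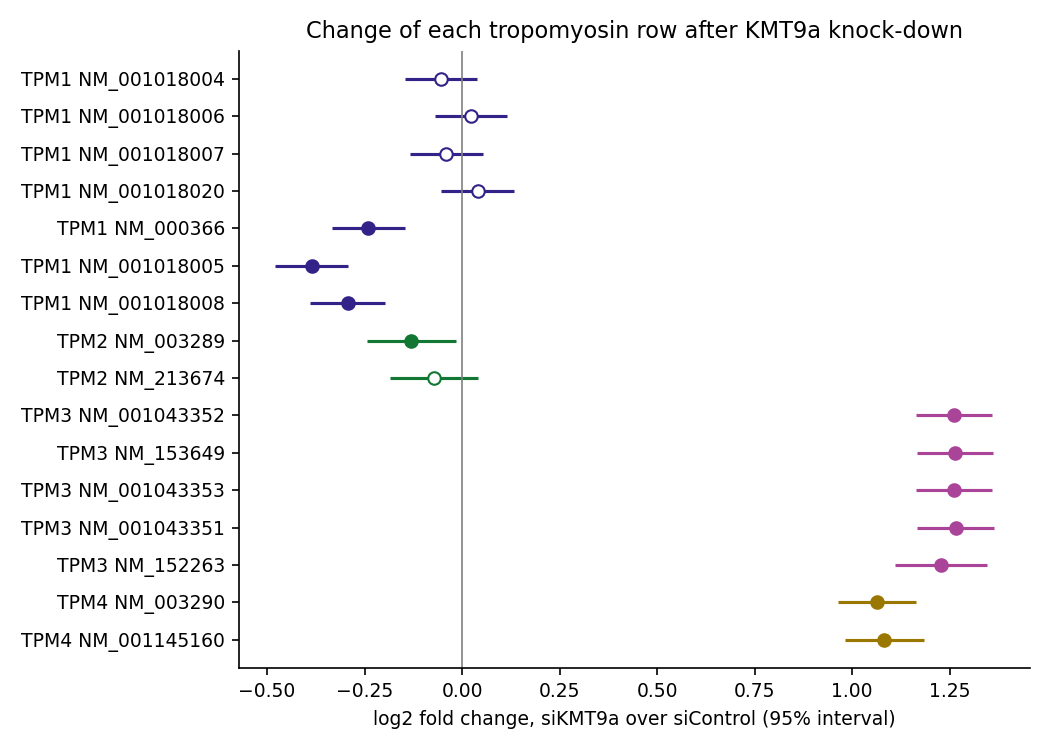
Log2 fold change of each tropomyosin row, siKMT9α over siControl, with a 95% interval from its standard error. Filled circles have an adjusted p under 0.05 (edgeR), and the 7 rows of TPM3 and TPM4 stand apart between 1.06 and 1.27 while TPM1 and TPM2 rows lie between -0.39 and 0.04.

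By gene, each represented by its row with the largest count, the rank of the change differed as widely. Of 13877 genes tested, 6.54% had a larger positive log2 fold change than TPM3 and 9.17% than TPM4, against 47.8% for TPM1 and 53.4% for TPM2. The adjusted p over genes was 2.25e-14 for TPM3, 4.43e-13 for TPM4, 0.678 for TPM1 and 0.269 for TPM2 (edgeR). So 2 of the 4 genes passed, beside 75.6% of all genes, both with a rise, beside 37.1%. The same 2 passed the threshold of the study, beside 24.2% of all genes, and had groups that did not overlap, beside 77% of all genes.

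Per length, the order of the 4 genes changed between the groups. In siControl, TPM1 had 197.5 ± 4.90 CPM per kb (SD, n = 3) and TPM2 had 186.7 ± 13.1, a difference within the spread of TPM2. TPM4 had 113.3 ± 0.71 and TPM3 had 36.7 ± 0.22 CPM per kb. In siKMT9α, TPM4 was highest with 236.8 ± 14.3 CPM per kb, above TPM1 with 200.5 ± 5.52 and TPM2 with 177.8 ± 12.0, and TPM3 reached 88.1 ± 4.39. These levels belong to the row that stands for each gene, and the TPM3 row is long through its last exon, so that its shorter row NM_153649 was at 51.6 ± 0.32 and 124.0 ± 6.38 CPM per kb. In siControl, 2.69% of the genes tested were above TPM1 on this scale, 2.89% above TPM2, 5.22% above TPM4 and 17% above TPM3.

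Rows of 1 gene were compared with each other next. Each row was set against the other rows of its gene (diffSpliceDGE of edgeR), and 2 of the 16 tropomyosin rows passed, both of TPM1, beside 1.1% of 16390 rows tested. NM_001018005 fell against the other TPM1 rows by 0.29 on the log2 scale (standard error 0.06, adjusted p = 3.66e-05) and NM_001018008 by 0.20 (standard error 0.06, adjusted p = 0.0359). The call for NM_001018008 was lost without siControl replicate 2, siControl replicate 3, siKMT9α replicate 1 or siKMT9α replicate 2 (adjusted p = 0.198 to 0.324). No row of TPM2, TPM3 or TPM4 passed.

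Rows of a gene share many of their reads, which stay in both rows when a ratio of 2 rows is taken and draw it towards 100%. NM_001018005 stood at 62.7%, 64.7% and 63.9% of NM_001018006 in the siControl samples and at 48.9%, 48.9% and 46.6% in the siKMT9α samples. The groups were far apart for this row, and its log2 ratio fell by 0.41 (standard error 0.02, adjusted p = 0.0034, limma on log2 ratios). NM_001018008 stood at 44.8%, 46.0% and 45.9% and then at 36.4%, 36.6% and 36.9% (adjusted p = 0.00162), and NM_000366 at 62.8%, 65.1% and 63.9% and then at 54.5%, 53.9% and 51.6% (adjusted p = 0.0131). Neither row overlapped between the groups. Smaller shifts passed for NM_001018004, from 100.4% to 95.2% on average (adjusted p = 0.00167), and for NM_001018007, from 91.7% to 87.8% (adjusted p = 0.022), but not for NM_001018020, from 91.4% to 92.6% (adjusted p = 0.207). In all, 5 of the 12 tropomyosin rows that are not the largest of their gene passed this test, beside 4.91% of 10714 such rows, and all 5 belong to TPM1. These 5 rows share reads and are all set against NM_001018006, so they are not independent and do not count separate events.

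In the other genes no ratio passed this test. The long TPM4 row stood at 95.4% of the short one in siControl and at 96.7% in siKMT9α (adjusted p = 0.254), and the TPM2 row NM_003289 at 101.3% and 97.3% of NM_213674 (adjusted p = 0.112). The groups did not overlap in either of these rows, nor in NM_153649 of TPM3, which went from 99.3% to 99.5% of NM_001043352. How often row ratios lack overlap over all genes was not counted, so non-overlap of a ratio, here or in TPM1, is a description only. The 4 TPM3 rows gave adjusted p from 0.581 to 0.929. A ratio shows unequal change of 2 rows and not which of them changed.

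**Figure D4:**
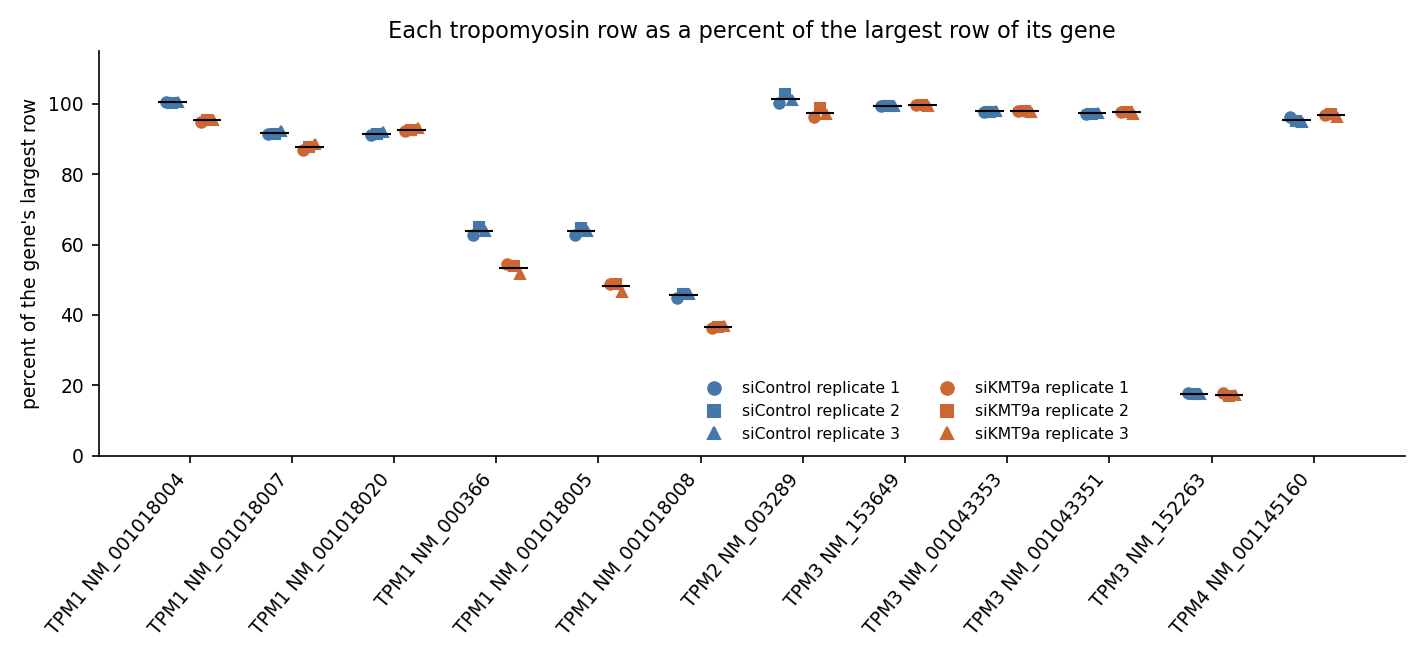
Each row as a percent of the largest row of its gene, for each sample, with a black line at the group mean. The siKMT9α samples of NM_001018005, NM_000366 and NM_001018008 lie well below the siControl samples, while the long TPM4 row has group means of 95.4% and 96.7% and NM_152263 of TPM3 of 17.7% and 17.3%.

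The 4 distal TPM1 rows have the same first and last exon and the same length, so that subtracting their counts leaves the reads in which their exon pairs differ. Lengths alone do not say which row holds 6a or 2a. Annotated chains with the first exon of the long rows and the second last exon of NM_001018005 all hold 6b, and NM_000366 holds 2b. NM_001018005 was taken to be the RefSeq partner of the annotation's MANE Select chain, with 2b and 6b, which is background knowledge and not in the files. NM_000366 minus NM_001018005 then reads 6a against 6b, beside 48 more bases of the second last exon, if NM_000366 holds 6a. Its length does not settle that, and with 6b the difference would read the 48 bases alone. The difference NM_001018006 minus NM_001018004 lay within 18 to 33 counts of it in every sample. In siControl the signs were opposite, at -30 to -11.5 counts against 1.5 to 21.5 for NM_000366 minus NM_001018005. The likeness thus rests on the siKMT9α samples. NM_001018020 minus NM_001018007 followed NM_001018006 minus NM_001018004 within 3 to 9.5 counts. On that likeness these differences were read as 6a against 6b too. If NM_001018005 held 2a, they would read 2b against 2a, alone or together with 6a against 6b. With 6b in NM_000366 and 2b in NM_001018005, the likeness would not say which exons they read.

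Under that reading, exons 6a and 6b of TPM1, printed above, were counted almost equally in siControl and with an excess of 6a in siKMT9α. NM_001018006 minus NM_001018004 was -1.59, -0.71 and -1.53 CPM in the siControl samples and 17.6, 16.4 and 16.6 CPM in the siKMT9α samples. In counts, it ran from -30 to -11.5 in siControl and from 225 to 318 in siKMT9α. NM_001018020 minus NM_001018007 changed by 18.1 CPM, from -0.90 ± 0.41 to 17.2 ± 0.55 (SD, n = 3). On the proximal side, NM_000366 minus NM_001018005 was 0.08, 1.33 and 0.18 CPM and then 19.2, 17.8 and 18.2 CPM. The groups were far apart in all 3 subtractions, which share reads and are not independent. An exact two-sided permutation test gave p = 0.1 for each, the smallest that 3 against 3 samples allow, and 0.108 after adjustment over the 13 differences computed. The subtraction does not say whether 6a rose or 6b fell.

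The other pair moved less. NM_001018004 minus NM_001018007, read as the difference between the second exons, was 30.6, 31.3 and 29.2 CPM in siControl and 27.4, 27.1 and 25.1 CPM in siKMT9α. The siKMT9α samples were lower without overlap, by 3.84 CPM on average. As a percent of both rows the groups overlapped, at 4.52 ± 0.21 and 4.09 ± 0.32 (SD, n = 3, exact permutation p = 0.2), while the other pair of rows, NM_001018006 and NM_001018020, gave 4.48 ± 0.22 and 3.84 ± 0.29 without overlap (exact permutation p = 0.1). The distal rows exceeded the proximal rows by more after knock-down. NM_001018004 minus NM_001018005 was 127.9 ± 1.57 CPM (SD, n = 3) in siControl and 167.3 ± 9.77 CPM in siKMT9α, and NM_001018006 minus NM_000366 was 126.1 ± 1.75 and 165.8 ± 9.74 CPM, which may also hold reads of the second exons. Each of these had an exact permutation p of 0.1.

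In TPM3 the same subtraction grew only with the gene. NM_001043352 minus NM_001043353, which differ in exon 6 alone, was 3.69 ± 0.35 CPM (SD, n = 3) in siControl and 8.56 ± 0.05 CPM in siKMT9α. As a percent of the sum of both rows it was 1.12 ± 0.11 and 1.09 ± 0.05, which overlapped (exact permutation p = 0.6). The pair NM_153649 and NM_001043351 gave 1.03 ± 0.11 and 1.01 ± 0.08 percent (exact permutation p = 0.9). Which TPM3 row holds 6a is not settled by the lengths. The 1327 bases by which the last exon of NM_001043352 is longer than that of NM_153649 held 18.5 to 25.5 counts in siControl and 20.5 to 49 counts in siKMT9α, too few to read a change beside a rising gene.

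In TPM2, NM_003289 minus NM_213674 was 0.50, 5.74 and 2.39 CPM in siControl and -8.42, -2.67 and -5.67 CPM in siKMT9α. The sign differed between the groups in every sample, at 1.36% or less of both rows on average. These rows end at different last exons and may hold different exons 6. In TPM4, the excess of the short over the long row rose from 13.8 ± 2.37 to 20.6 ± 1.27 CPM (SD, n = 3) without overlap. As a percent of both rows it fell from 2.37 ± 0.40 to 1.69 ± 0.19, also without overlap (exact permutation p = 0.1 for each). It reads the first exon of the short row against the first 2 exons of the long row.

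**Figure D5:**
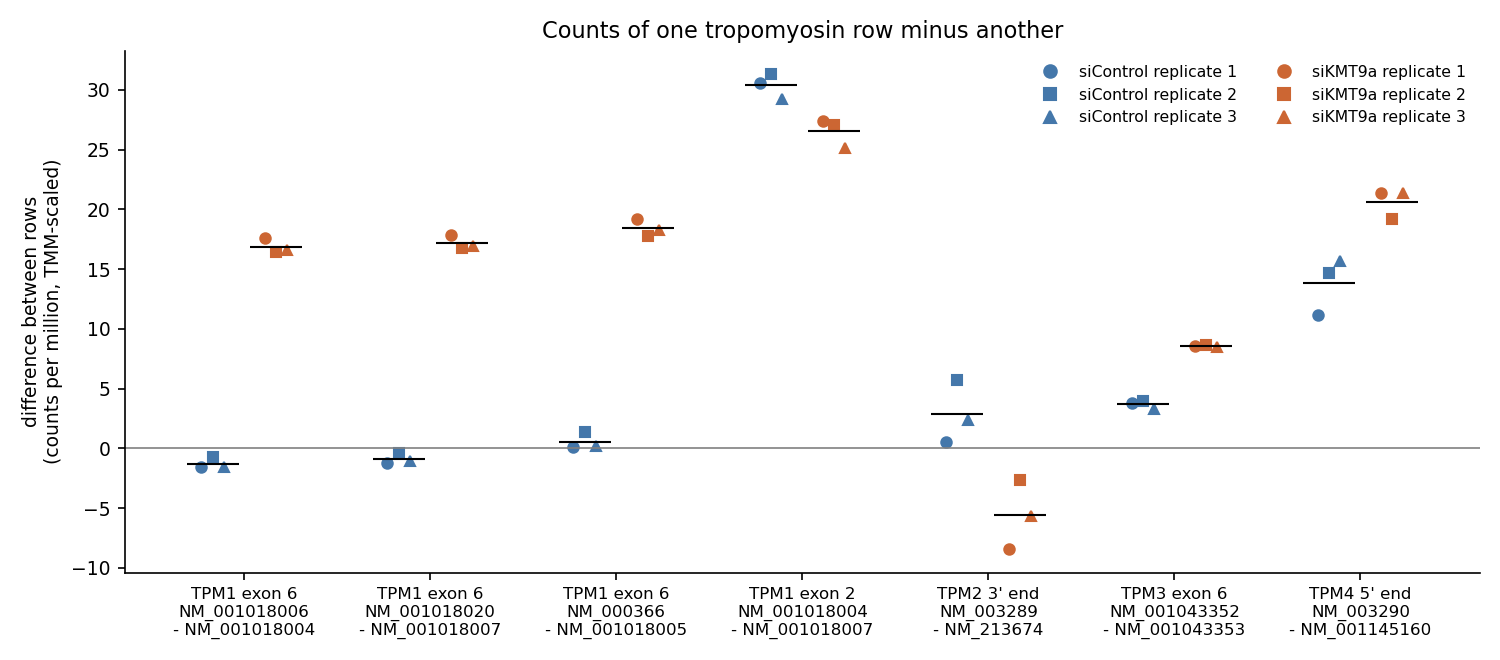
Counts of 1 tropomyosin row minus another in CPM (TMM-scaled), for each sample, with a black line at the group mean and a grey line at 0. The 3 subtractions read as TPM1 exon 6a against 6b lie between -1.59 and 1.33 CPM in siControl and between 16.4 and 19.2 CPM in siKMT9α.

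TPM1 had no annotated pseudogene, TPM2 had 1, TPM4 had 3 and TPM3 had 9, so that reads of TPM3 in particular could be shared with near-identical copies. The table lists TPM3P9 with a row of its own, on chromosome 19, at 26.1 ± 0.82 CPM (SD, n = 3) in siControl and 20.3 ± 1.02 CPM in siKMT9α. It fell by 0.37 on the log2 scale (adjusted p = 1.05e-04, edgeR), opposite to TPM3. No other gene of the table overlaps a row of TPM1, TPM2, TPM3 or TPM4, but whether another gene overlaps the TPM3P9 row was not tested.

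Genes that build, cap, bind or pull on actin filaments moved in both directions. Of 56 tested in 9 lists, 20 rose (35.7%) and 26 fell (46.4%), beside 37.1% and 38.5% of all genes. With SRF, its cofactors and the splicing regulators, 74 of 91 listed genes were tested, and 30 rose (40.5%) and 31 fell (41.9%). On library size alone these were 27 and 36, beside 4359 higher and 6212 lower of all genes in place of 5150 and 5342. The median log2 fold change of the 74 was -0.0026, beside -0.0139 over all genes. Actins form the filament itself. ACTB, the beta actin of non-muscle cells, was 877.0, 946.2 and 926.1 CPM in siControl and 2512.0, 2360.7 and 2302.3 CPM in siKMT9α, a rise by 1.38 on the log2 scale. Its close relative ACTG1, the gamma actin, fell from 5739 ± 420.2 to 4676 ± 271.4 CPM (SD, n = 3), by 0.30 on the log2 scale. ACTA2, the smooth muscle actin, rose by 0.74 on the log2 scale, at 9.42 and 15.8 CPM on average and with a span that overlaps FAS. The 3 other actins were not tested.

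Tropomodulins cap the pointed end of filaments that carry tropomyosin. Of 3 tested, TMOD3, the widely expressed one, rose by 0.56 on the log2 scale and TMOD2 had a log2 fold change of -0.90, while TMOD1 did not pass. Cofilins and destrin sever filaments, and 2 of 3 fell, DSTN by 0.45 and CFL2 by 0.35 on the log2 scale. Of 10 genes listed for myosin II, which pulls on filaments, 3 rose and 6 fell. Those that rose included MYLK, a kinase that activates myosin and is not a myosin itself (log2 fold change 1.33, overlapping MYLK-AS1). MYL9, a regulatory light chain, was lower (-2.31). MYLK and MYL9 were low in siControl, at 9.03 and 9.45 CPM on average. Of 5 caldesmon, calponin and transgelin genes, which bind along the filament, 2 rose and 3 fell. TAGLN2 was higher (log2 fold change 2.01) and TAGLN, whose span overlaps LOC100652768, lower (-2.17).

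Among 9 crosslinkers, 2 rose and 4 fell, with FLNC at -1.85 and FSCN1, the fascin of filament bundles, at -0.86 on the log2 scale. FLNC was low, at 4.28 CPM in siControl and 1.19 CPM in siKMT9α on average. Formins build unbranched filaments, and of 12 tested 6 rose and 3 fell, with DIAPH3 at 1.84 and FMN1 at -1.04. DIAPH3 and FMN1 were low in siControl, at 7.88 and 7.70 CPM on average. The Arp2/3 complex builds branched ones, and of 8 subunit genes 4 rose and 3 fell, with ARPC1A at 1.80 and ARPC5 at -2.21. ARPC3 was not analysed here. Of 8 troponin genes, 4 were at 0 in all samples and 3 were tested, all of them lower, with TNNT1 at -0.77 and TNNC1 at -2.17 from 0.81 CPM. SRF, a transcription factor of many actin and tropomyosin genes, did not pass the test (log2 fold change -0.05, adjusted p = 0.494, edgeR), and its 3 cofactors rose, among them MKL2 by 1.00 and MYOCD by 1.82 on the log2 scale. MYOCD was low, at 1.80 CPM in siControl and 6.42 CPM in siKMT9α on average.

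Splicing regulators that are known to act on tropomyosin exons, or are of the same families, were also listed, and of 14 tested 7 rose and 5 fell. PTBP1, the polypyrimidine tract-binding protein, was 86.1, 92.9 and 95.3 CPM in siControl and 254.2, 244.6 and 248.2 CPM in siKMT9α, a rise by 1.45 on the log2 scale. Its paralogs went the other way, PTBP2 from 55.9 ± 2.12 to 17.5 ± 2.90 CPM (SD, n = 3) and PTBP3 from 211.3 ± 6.67 to 110.7 ± 8.55 CPM. QKI, another RNA-binding protein, fell from 148.3 ± 7.96 to 58.0 ± 5.45 CPM, by 1.35 on the log2 scale. RBFOX2 rose by 0.61 and CELF1 by 0.50, while RBM24 fell by 0.51 and MBNL1, whose span overlaps MBNL1-AS1, by 0.43 on the log2 scale. ESRP2 (0.35), HNRNPH1 (0.45), KHSRP (0.35) and SRSF1 (0.12) also rose, MBNL2 (0.04) and HNRNPF (0.05) did not pass, and ESRP1 was not tested. Their part in the TPM1 row differences was not tested.

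The promoters of the 4 genes were searched in RefSeq windows of GRCh38.p14, from 250 bases before to 50 after each listed start, of which TPM1 has 1, TPM2 and TPM3 have 2 each and TPM4 has 3. The CArG box, the element bound by SRF, was found in 1 of these 8 windows and in 1.29% of all 35116 windows. It belongs to the most upstream listed start of TPM4, with its first base 173 bases before that start (chr19:16067355-16067384, plus strand), and is shown with 10 bases on each side, the box in capitals.
TPM4 CArG box: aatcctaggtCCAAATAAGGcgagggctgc
The MCAT element (CATTCC, either strand) was in none of the 8 windows and in 14% of all. The windows do not cover every first exon of the rows. TPM1 rows start at chr15:63334838 or chr15:63340636 of GRCh37, further apart than its 1 window spans. The 2 TPM3 windows lie closer together than the first exons of its short rows and of NM_152263. Which first exons fall in a window was not tested, so the search is silent on those outside. A match or its absence describes these letters only.

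Genes whose pattern over the 6 samples was most like each tropomyosin gene were found by the root mean square difference of mean-centred log2 CPM, among 9484 genes with a mean of at least 10 CPM. Nearest to TPM3 were CAP1, an actin-binding protein (difference 0.0129, log2 fold change 1.28), and LYPD1 (0.0263). Nearest to TPM4 were ALDH9A1 (0.0178, log2 fold change 1.05) and WDR70 (0.0204). Nearest to TPM1 were MFSD11 (0.00739) and DCUN1D4 (0.0164), and nearest to TPM2 was TSPAN17 (0.0168), all with log2 fold changes between -0.08 and 0.04. This is a description over 6 samples that fall into 2 groups.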

How the data were processed

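RNA-Seq of 6 A549 samples was analysed. Per the labels and the study's methods, the authors aligned reads to hg19 with STAR 2.5 and counted them on RefSeq transcripts with HOMER. The authors deposited estimated counts per transcript, not normalized, in steps of 0.5 (36.4% not whole). HOMER's counting options and strand setting are not given in the sources used here. The deposited fold ratios and p-values of the authors' edgeR comparison (siKMT9α against siControl) were not used.

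Of 38767 entries, 1182 lacked a symbol and counts and were left out. Counts were rounded and analysed with edgeR 4.0.16 (R 4.3.3; TMM, filterByExpr, quasi-likelihood F test, two-sided, Benjamini-Hochberg). Library sizes and TMM factors came from a table with 1 row per symbol, the row with the largest count. Rows of a gene were compared with diffSpliceDGE and, chosen after seeing the data, with limma 3.58.1 on log2 ratios to the largest row of the gene. Row differences were compared by exact permutation (scipy). Exons and sequences came from GRCh37 with GENCODE v44lift37. A row's deposited length equalled its exonic bases minus 1 less than 2 per exon, which was used to match rows to chains. The edgeR quasi-likelihood fits, diffSpliceDGE, the log2 ratios and limma voom with diffSplice were tested on simulated data, the other alternatives were not. Rows were simulated independently of each other, so the effect of reads shared between rows of a gene was not tested. DESeq2 1.42.0 was an alternative. Genes were named by rule: all tropomyosin rows, N6AMT1, the actins, the splicing regulators, the 2 largest non-overlapping changes passing the test in each list, and the 2 nearest genes to each tropomyosin, of which 1 is not reported here. SRF, TMOD1, TPM3P9 and the marker genes were named after their values were seen. The members and lists were chosen with earlier results of these data known. Counting intervals would cover counting error only.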

Additional observations from a re-analysis of the deposited data

How the results depend on the processing

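The rises of TPM3 and TPM4 held under the 13 alternatives run for genes, with log2 fold changes of 1.16 to 1.31 for TPM3 and 0.96 to 1.12 for TPM4, and so did the fall of N6AMT1 (-1.88 to -1.71). Without TMM, on library size alone, the median over all genes moved from -0.01 to -0.12. TPM1 by gene and its row NM_001018006 were then at -0.0837 and NM_001018020 at -0.0649 in place of values above 0, none of them past the test, and TPM2 passed at -0.1775 (adjusted p = 0.0101, edgeR). The rows NM_001018004 (-0.16) and NM_001018007 (-0.15) of TPM1 and NM_213674 of TPM2 passed there too.

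The count of tropomyosin rows that stand apart within their gene was 2 by diffSpliceDGE, 1 with a replicate block and 1 to 2 with a sample left out, 4 with limma voom and diffSplice and 5 with limma on log2 ratios, a test added after the data were seen. NM_001018005 was among them in each. NM_001018004 and NM_001018007, which had values of 0.04 and 0.05 against all other rows, were at -0.0757 and -0.0631 against the largest row, because the row they are set against differs. NM_001043353 of TPM3 went from -6e-04 to 5e-04 without siControl replicate 3, 3e-04 without siKMT9α replicate 1 (-0.0013 to 5e-04 with any 1 sample left out), 0.0048 with limma voom and 0.001 with log2 ratios, and NM_001043352 to 0.0035 with limma voom, none past the test. The TPM1 difference read as exon 6, of 18.2 CPM, was 17.6 CPM on library size alone. It was 17.8 to 18.4 CPM with a sample left out. These settings were added after the data were seen. Replicate numbers did not pair the samples (deviations from the group means had correlations of -0.12, 0.04 and -0.11). A replicate block took away the calls of NM_001018008 within its gene (adjusted p = 0.135) and of NM_003289 (-0.13, adjusted p = 0.079, edgeR) and changed no other call of a tropomyosin row or gene. In the gene lists it left 29 higher and 30 lower in place of 30 and 31. Depth limits the smallest row differences. The extension of the TPM3 last exon held under 50 counts. In siControl, the differences read as TPM1 exon 6 ran from -30 to 21.5 counts and that of TPM2 from 9.5 to 93 counts.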
